A study of Sus scrofa with 57 samples.

Results

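The 65 genes described here are the heat shock proteins and J-domain cochaperones of pig adipocytes. They were taken by symbol from the deposited expression tables: every gene whose symbol starts with HSPA, HSPB, HSPD, HSPE, HSPH or HSP90, or with DNAJA, DNAJB or DNAJC followed by a number. They bear 61 names, because HSPB1, DNAJC1, DNAJC2 and DNAJC9 were each listed at 2 loci, and they stood among 25285 genes in all. RNA came from mature adipocytes, freed with collagenase from retroperitoneal fat that was taken at slaughter from male F2 offspring of a Duroc and Göttingen minipig intercross. All animals were kept alike with free access to feed and were killed when about a year old or somewhat younger. The 5 lean and 5 obese pigs lay at the lean and the obese end of this population, and each pig is 1 replicate. Values are listed for lean pig-402, pig-407, pig-413, pig-525 and pig-577 and for obese pig-433, pig-473, pig-524, pig-529 and pig-572, always in this order. Pig-572 had 2 RNA libraries, of which the second is titled as a repeat but described under a neighbouring number, and their mean was used. Expression is given as FPKM, in which fragments are scaled to the length of the transcript and to the number of mapped fragments, divided by a size factor per library that ranged from 0.697 to 1.21.

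Heat shock proteins are chaperones that bind unfolded or partly folded proteins. HSP70 proteins (HSPA) bind and release clients in a cycle driven by ATP, J-domain proteins (DNAJ) bring clients to them and start ATP hydrolysis, and exchange factors such as HSP110 reset the cycle. HSP90 acts later on clients that are nearly folded, HSP60 and HSP10 form a folding chamber in mitochondria, and small heat shock proteins hold unfolded proteins without ATP. Some of the genes are induced by heat shock factor 1 (HSF1) when cells are heated or stressed, while others are transcribed at a steady level in most tissues, and a further group serves the endoplasmic reticulum and answers to the unfolded protein response there.

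The adipocyte label was checked with 14 marker genes, of which 8 were tested, SCD failed in the authors' estimate, and ADIPOQ, FABP4, CIDEA, DGAT2 and LPL had no entry under these names. CIDEC, a lipid droplet protein, was the most abundant of them, with 312 to 553 FPKM across the 10 pigs. LEP, which encodes the hormone leptin, had a log2 fold change (obese minus lean) of 2.3 (SE 0.48) and an adjusted p of 0.0819 by limma, and its lean and obese pigs did not overlap. PLIN4, a lipid droplet coat protein, had a log2 fold change of 0.32 (SE 0.18), and CIDEC of -0.25 (SE 0.19). Of the 8 tested, 5 had positive and 3 negative log2 fold changes, with a median of 0.0056. The 8 adipocyte markers tested summed to between 1118 and 1525 FPKM per pig, without SCD and the names that had no entry.

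Markers of other cells were low in most cases, with matrix genes, HBB and S100A8 as the exceptions. Of 18 macrophage and leukocyte names, 13 had a mean under 1 FPKM and CD163 was at 0 in all pigs. Their summed level was 25.7, 22.8, 28.6, 37.1 and 43.0 FPKM in lean pigs and 20.3, 23.6, 51.8, 24.8 and 83.0 FPKM in obese pigs, mostly from S100A8, with CD14 and S100A8 among the 4 genes tested. Of 13 endothelial and mural names, 9 had a mean under 1 FPKM, and the sum ran from 6.13 to 24.4 FPKM in lean and from 11.8 to 23.3 FPKM in obese pigs. TAGLN, an actin-binding protein of mural cells and the most abundant of them, had a log2 fold change of 0.38 (SE 0.15), and RGS5 of 0.18 (SE 0.40). All 3 genes tested in this list had positive log2 fold changes. Of these 1, TAGLN, was higher at an unadjusted p under 0.05 by limma (33.3%, beside 11.04% of all genes tested). Fibroblast and preadipocyte genes summed to 645, 698, 229.6, 469 and 689 FPKM in lean pigs and 487, 523, 633, 409 and 257 FPKM in obese pigs. COL3A1, a fibrillar collagen, made up 78.1% of that sum, COL1A2 had a log2 fold change of -0.70 (SE 0.59), and DLK1 was at 0. All 7 loci tested in this list had negative log2 fold changes, with a median of -0.52 and 0 of them lower at an unadjusted p under 0.05 by limma, beside 9.508% of all genes tested. Red cell genes summed to 15.5 to 98.8 FPKM in lean and 20.7 to 49.4 FPKM in obese pigs, with HBB most abundant, HBA next and SLC4A1 at 0, and no mesothelial or muscle gene, CKM included, reached a mean of 1 FPKM. The part of these cells in the results below was not tested, and in bulk RNA fewer cells of a type and less RNA per cell cannot be told apart. An exact 0, as for CD163, DLK1 and SLC4A1, may also come from the annotation or the estimate. For the cochaperone gene STIP1, 1 locus was at 0 in all pigs while the other averaged 20.2 FPKM.

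Among the members the data gave no difference between lean and obese adipocytes that passed correction. Each gene with a mean of at least 1 FPKM was tested with limma on log2(FPKM + 1), 10170 genes in all, and 51 of the 65 members were among them. By limma 0 of 51 members had an adjusted p under 0.05, against 1 gene of all 10170 (0.009833%), a count of genes that was 146 without pig-402 with the members still at 0, while 9 members had an unadjusted p under 0.05. Of these 9, HSPB1 at both of its loci, DNAJA4, DNAJB2 and DNAJC13 were higher in obese pigs, 5 members beside 11.04% of all genes tested, a share of 9.80%. HSPB11, DNAJB14, DNAJC8 and DNAJB9 were lower, 4 members or 7.84%, beside 9.508% of all genes tested. Both shares lay near those of all genes. The lean and obese pigs did not overlap for 0 members on the higher side, where 2.448% of all genes tested had this property, and for 1 member on the lower side, DNAJB14, where 1.691% had it.

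The sizes of the differences were also close to those of the transcriptome. The median log2 fold change was 0.051 over the 51 members and 0.0053 over all genes tested, and the median size regardless of sign was 0.17 and 0.18. A positive log2 fold change was seen in 29 members (56.9%) and in 50.7% of all genes tested. The counts moved with scaling: with FPKM as deposited 2 members were higher, both HSPB1 loci, and 1 was lower, HSPB11, beside 5.98% and 7.64% of all genes. They also moved with single pigs: 8 members were higher without pig-402 (15.7%, beside 13.8% of all genes tested) and 3 without pig-524, pig-572 or pig-577 (beside 7.96%, 8.05% and 8.51%), and 7 were lower without pig-407 (13.7%, beside 10.9%). Without pig-402 the pigs of 4 members did not overlap on the lower side (7.84%, beside 4.36% of all genes tested) and without pig-407 those of 2 (3.92%, beside 3.10%). On the higher side the count was 2 without pig-529 (3.92%, beside 3.16%) and 1 without pig-402, pig-413 or pig-433, beside 5.74%, 2.69% and 4.70%.

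**Figure D1:**
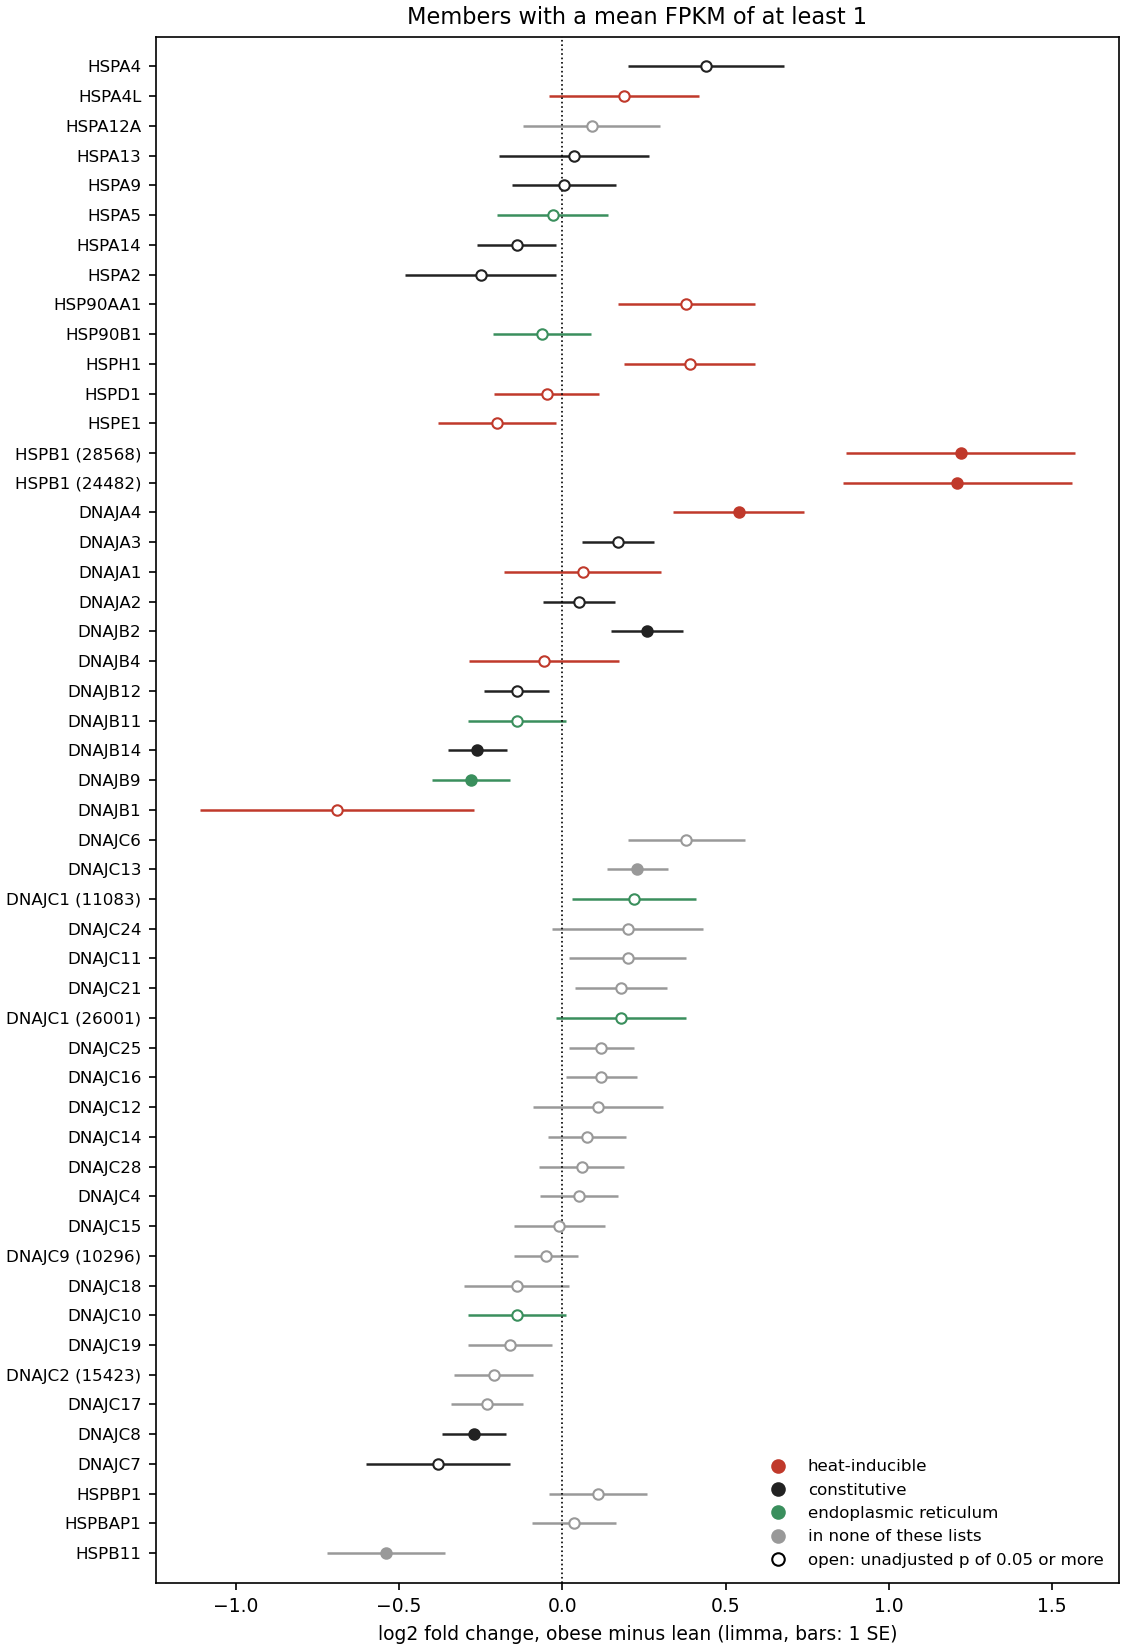
Log2 fold change of FPKM, obese minus lean, for the 51 members tested, by family, with bars of 1 standard error from limma and n = 5 pigs a group. Filled points mark the 9 members with an unadjusted p under 0.05, and both HSPB1 loci stand farthest to the right at 1.21 and 1.22.

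The remaining 14 members had a mean under 1 FPKM and were not tested at that filter. DNAJC22, DNAJC5B, DNAJB8 and HSPB9 were listed at 0 in all 10 pigs. The others were DNAJB5, DNAJB13, DNAJC27, DNAJC30, HSPA12B, HSPB3, HSPB6, HSPB8 and the second loci of DNAJC2 (ENSSSCG00000028700) and DNAJC9 (ENSSSCG00000023482).

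Levels among the members spread widely. HSPE1, the HSP10 lid of the mitochondrial folding chamber, had the highest mean at 981 FPKM, followed by HSP90AA1 at 270.0 FPKM, HSPD1 at 224 FPKM, HSPA5 at 93.8 FPKM and HSPB1 at 73.3 FPKM for its more abundant locus. All members together summed to 1977 to 2787 FPKM in lean pigs and 2155 to 2879.7 FPKM in obese pigs. HSPE1 alone gave 40.1% to 47.7% of this sum in lean and 31.3% to 43.1% in obese pigs. The 3 most abundant members gave 59.4% to 65.8% in lean and 52.4% to 63.8% in obese pigs. As a share of all FPKM, the members ranged from 0.149% in pig-577 to 0.350% in pig-402, both lean.

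The HSP70 family had 9 members, 8 of them tested, and none reached an unadjusted p under 0.05 by limma. HSPA4, which belongs to the HSP110 branch and resets HSP70 by nucleotide exchange, had 35.7, 19.8, 16.5, 41.4 and 20.4 FPKM in lean pigs and 29.5, 40.1, 38.5, 30.9 and 34.8 FPKM in obese pigs. Lean pig-407, pig-413 and pig-577 lay below every obese pig, whereas lean pig-402 and pig-525 lay within or above the obese range. Its log2 fold change was 0.44 (SE 0.24), with an exact permutation p of 0.143 that ranged from 0.0397 to 0.302 without 1 pig, under 0.05 in 1 of 10 fits. HSPA4L, its heat-inducible relative, ranged from 2.76 to 6.64 FPKM in lean and from 3.17 to 6.83 FPKM in obese pigs, with a log2 fold change of 0.19 (SE 0.23) that ranged from 0.061 to 0.33 without 1 pig.

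Other HSP70 proteins had log2 fold changes from -0.25 to 0.090. HSPA9, the mitochondrial HSP70 that pulls precursor proteins through the inner membrane, averaged 60.6 ± 13.3 FPKM in the lean group and 59.9 ± 6.42 FPKM in the obese group (SD, n = 5 each), and its log2 fold change of 0.0057 became -0.020 with FPKM as deposited. HSPA2, known best from the testis, ranged from 8.30 to 20.5 FPKM in lean and from 7.91 to 12.3 FPKM in obese pigs, and its log2 fold change of -0.25 (SE 0.23) was -0.074 without pig-577. HSPA13, a microsomal form, peaked at 12.7 FPKM in lean pig-525 while the other 9 pigs lay between 4.75 and 9.35 FPKM. HSPA14, which works at ribosomes, averaged 2.58 FPKM in lean and 2.26 FPKM in obese pigs, with a log2 fold change of -0.14 (SE 0.12). HSPA12A, a distant relative, was well expressed, with 31.0 to 68.7 FPKM in lean and 46.2 to 65.3 FPKM in obese pigs.

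The best known HSP70 genes could be followed only in part, since HSPA1A, HSPA1B and HSPA6, the strictly inducible forms, had no entry under these names. HSPA8, the constitutive cytosolic HSP70, is named for ENSSSCG00000015140 only in the reference name table, so it is no member by symbol and was looked up for its role. Its values were 138, 63.0, 27.4, 233 and 64.8 FPKM in lean pigs and 145, 167, 176, 118 and 121 FPKM in obese pigs. The 5 obese pigs lay close together, while lean pig-407, pig-413 and pig-577 lay below all of them and lean pig-525 above. By limma the log2 fold change was 0.80 (SE 0.47), with an exact permutation p of 0.167. For HSPA8 the log2 fold change would be much smaller without lean pig-413, the lowest at 27.4 FPKM. The locus that this table names HSPA1L ranged from 33.9 to 85.8 FPKM in lean and from 35.3 to 122 FPKM in obese pigs. Its log2 fold change of 0.28 (SE 0.36) would be much smaller without obese pig-433, the highest. HSP70.2 stayed under 1 FPKM.

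HSP90AA1 and HSPH1 gave positive differences that missed the threshold. HSP90AA1, the inducible cytosolic HSP90, had 344, 183, 189, 292 and 185 FPKM in lean pigs and 298, 345, 259, 294 and 310.2 FPKM in obese pigs. Lean pig-407, pig-413 and pig-577 lay below all obese pigs, and pig-402 and pig-525 lay among them. Its log2 fold change was 0.38 (SE 0.21), with an adjusted p of 0.312 by limma and an exact permutation p of 0.103. Without 1 pig the latter ranged from 0.0159 to 0.230 and was under 0.05 in 1 of 10 fits. HSP90AB1, the constitutive form, is listed under its older symbol HSPCB and averaged 103 ± 12.7 FPKM in the lean group and 90.7 ± 11.8 FPKM in the obese group (SD, n = 5 each), with a log2 fold change of -0.19 (SE 0.14). HSPH1, the inducible HSP110, had 9.91, 7.05, 7.57, 12.4 and 5.58 FPKM in lean pigs and 13.8, 14.3, 9.36, 8.96 and 9.88 FPKM in obese pigs. Obese pig-433 and pig-473 lay above all lean pigs, and the log2 fold change was 0.39 (SE 0.20) with an exact permutation p of 0.127.

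**Figure D2:**
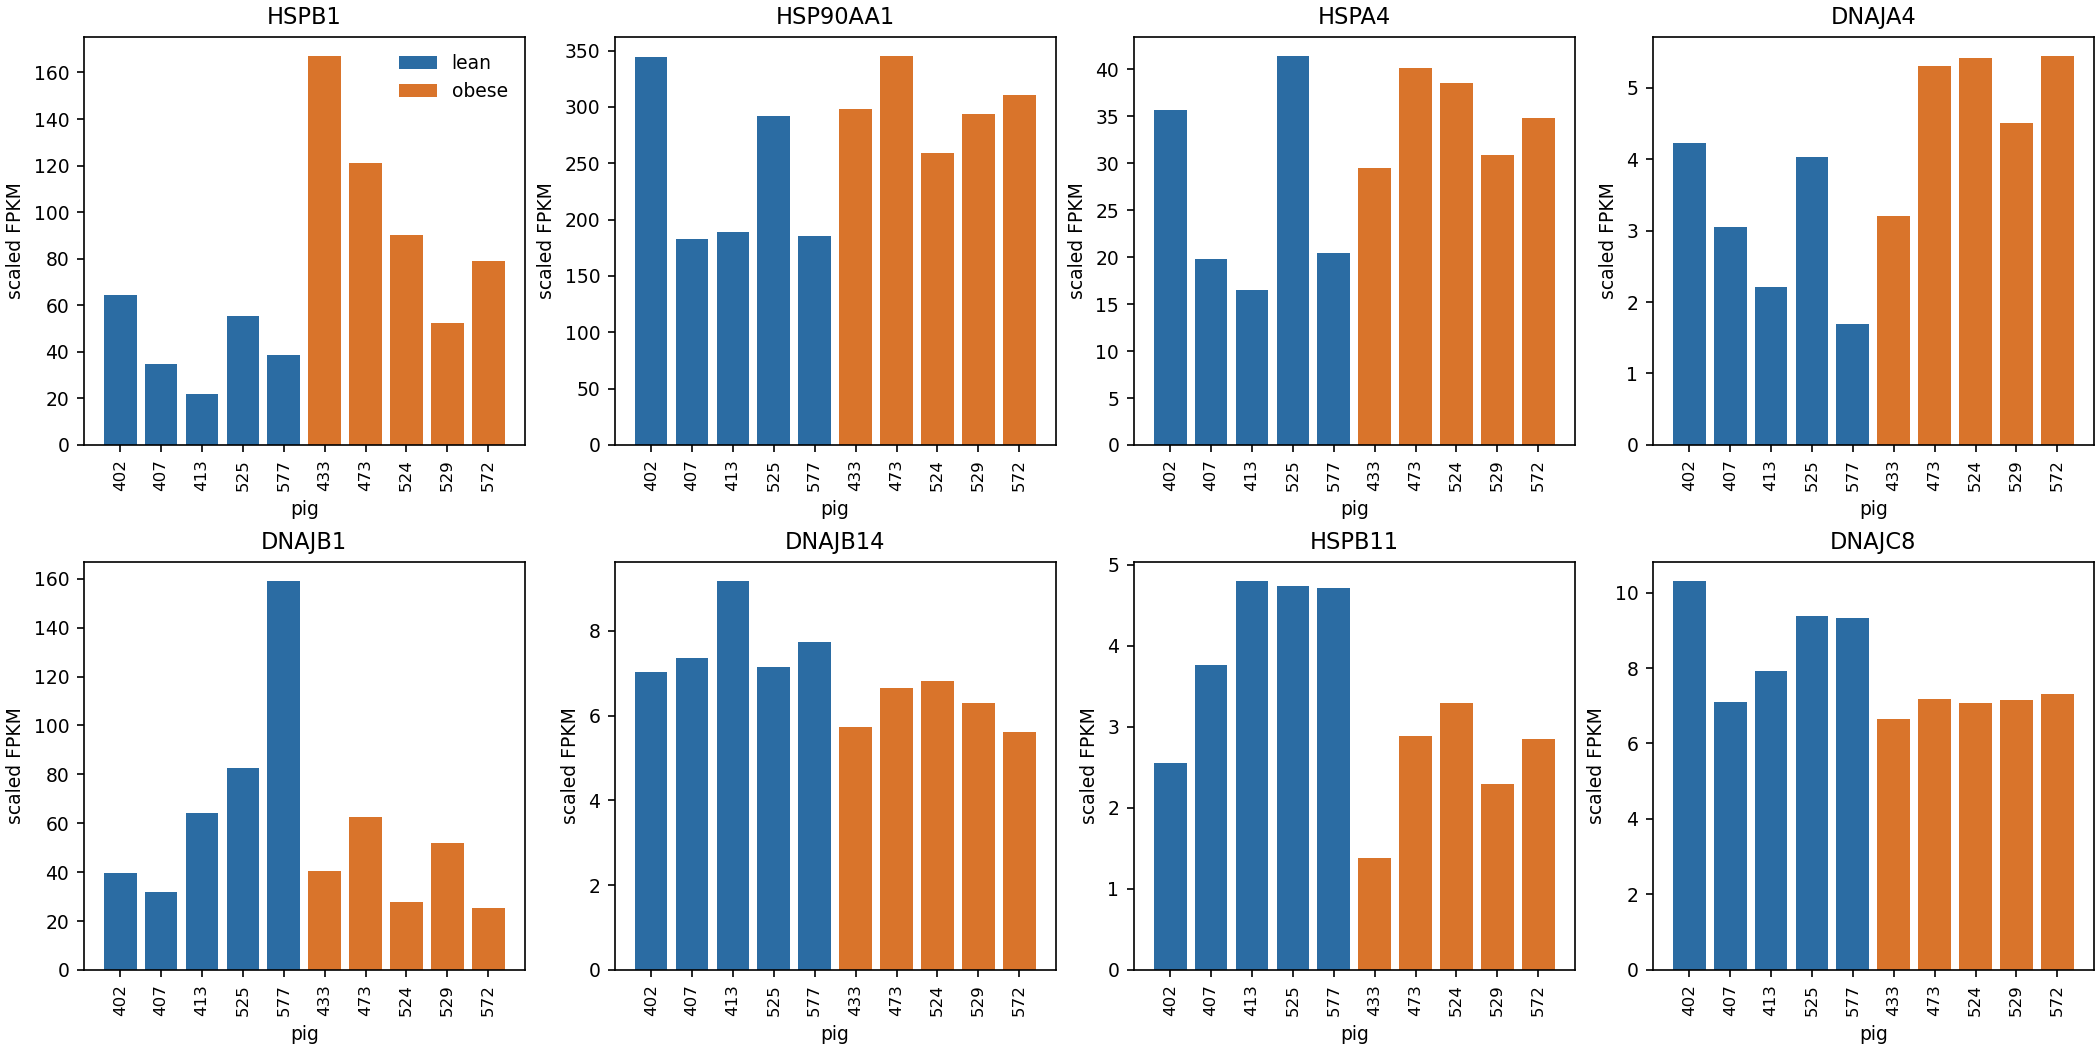
FPKM, scaled between libraries, of 8 members in each of the 5 lean (blue) and 5 obese (orange) pigs, 1 bar a pig, with axes from 0. HSPB1 is shown at ENSSSCG00000024482, where obese pig-433 and pig-473 reach 167 and 121 FPKM, and DNAJB14 is the member whose groups do not overlap.

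The chaperonin pair of mitochondria was abundant and its groups overlapped. HSPE1 had 1156, 855, 1069, 1118 and 1018 FPKM in lean pigs and 705, 1150.2, 764, 1042 and 936 FPKM in obese pigs. Obese pig-433 and pig-524 lay below every lean pig. For HSPE1 the log2 fold change was -0.20 (SE 0.18), with an exact permutation p of 0.238, and it was -0.11 without pig-433. HSPD1, the HSP60 barrel, had 256, 196, 218, 244 and 219 FPKM in lean pigs and 177, 284, 194, 205 and 246 FPKM in obese pigs. Its obese pigs spread beyond the lean pigs on both sides, and the log2 fold change of -0.048 (SE 0.16) became 0.027 without pig-433. Both genes lie next to each other on chromosome 15 of Sscrofa10.2, with 757 bases between their loci.

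A deposited region of differential methylation lay in that gap. It was found by reduced representation bisulfite sequencing (RRBS), which reads methylation at CpG-rich fragments, with at least 5 pigs a group. The region at chr15:112548384-112548446 held 10 CpGs, 164 bases from the HSPE1 locus and 532 bases from the HSPD1 locus. Mean methylation there was 14.9% in obese and 2.64% in lean pigs, as the authors pooled them, and whether their groups follow the label of every pig is not known. In the deposited table that asked for at least 3 pigs a group, a region inside the HSPD1 locus, chr15:112547106-112547426 with 18 CpGs, had 15.3% in obese and 4.93% in lean pigs. The authors had selected these regions for their difference, so they are given as values with no test, and the number of pigs behind each is not in the tables.

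HSPB1, the small heat shock protein HSP27, had at both of its loci the largest positive log2 fold changes of the 51 members tested. At ENSSSCG00000024482 (chr3:9925863-9927499) it had 64.6, 34.8, 22.0, 55.2 and 38.8 FPKM in lean pigs and 167, 121, 90.1, 52.6 and 79.0 FPKM in obese pigs. Obese pig-433, pig-473, pig-524 and pig-572 lay above every lean pig, and obese pig-529 lay among the lean pigs. Means were 43.1 ± 16.9 FPKM in the lean group and 102 ± 44.0 FPKM in the obese group (SD, n = 5 each), a ratio of 2.37. By limma the log2 fold change was 1.21 (SE 0.35), the unadjusted p was 0.00528 and the adjusted p was 0.134, so it failed the correction. Its exact permutation p was 0.0238, where 0.00794 is the smallest that 5 against 5 pigs can give. Leaving out 1 pig at a time gave log2 fold changes from 1.0 to 1.4 and exact permutation p values of at most 0.0397.

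The second HSPB1 locus, ENSSSCG00000028568 (chr3:10049289-10050925), lies 121789 bases from the first and had almost the same values, from 22.1 to 64.6 FPKM in lean and from 53.4 to 169 FPKM in obese pigs. Whether the loci share reads could not be examined without reads or a genome of this build, so they may be 1 measurement counted as 2. In the share of the member sum, HSPB1 at the second locus ran from 0.984% to 2.40% in lean and from 2.21% to 7.52% in obese pigs. CRYAB, a small heat shock protein whose symbol lies outside the rule and which was singled out after its values were seen, had 62.8 to 142 FPKM in lean and 97.7 to 274 FPKM in obese pigs, with a log2 fold change of 0.59 (SE 0.32) and an exact permutation p of 0.127. For CRYAB the log2 fold change would be over 1.5 times smaller without obese pig-473, the highest. HSPB2 and HSPB7 had no entry.

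**Figure D3:**
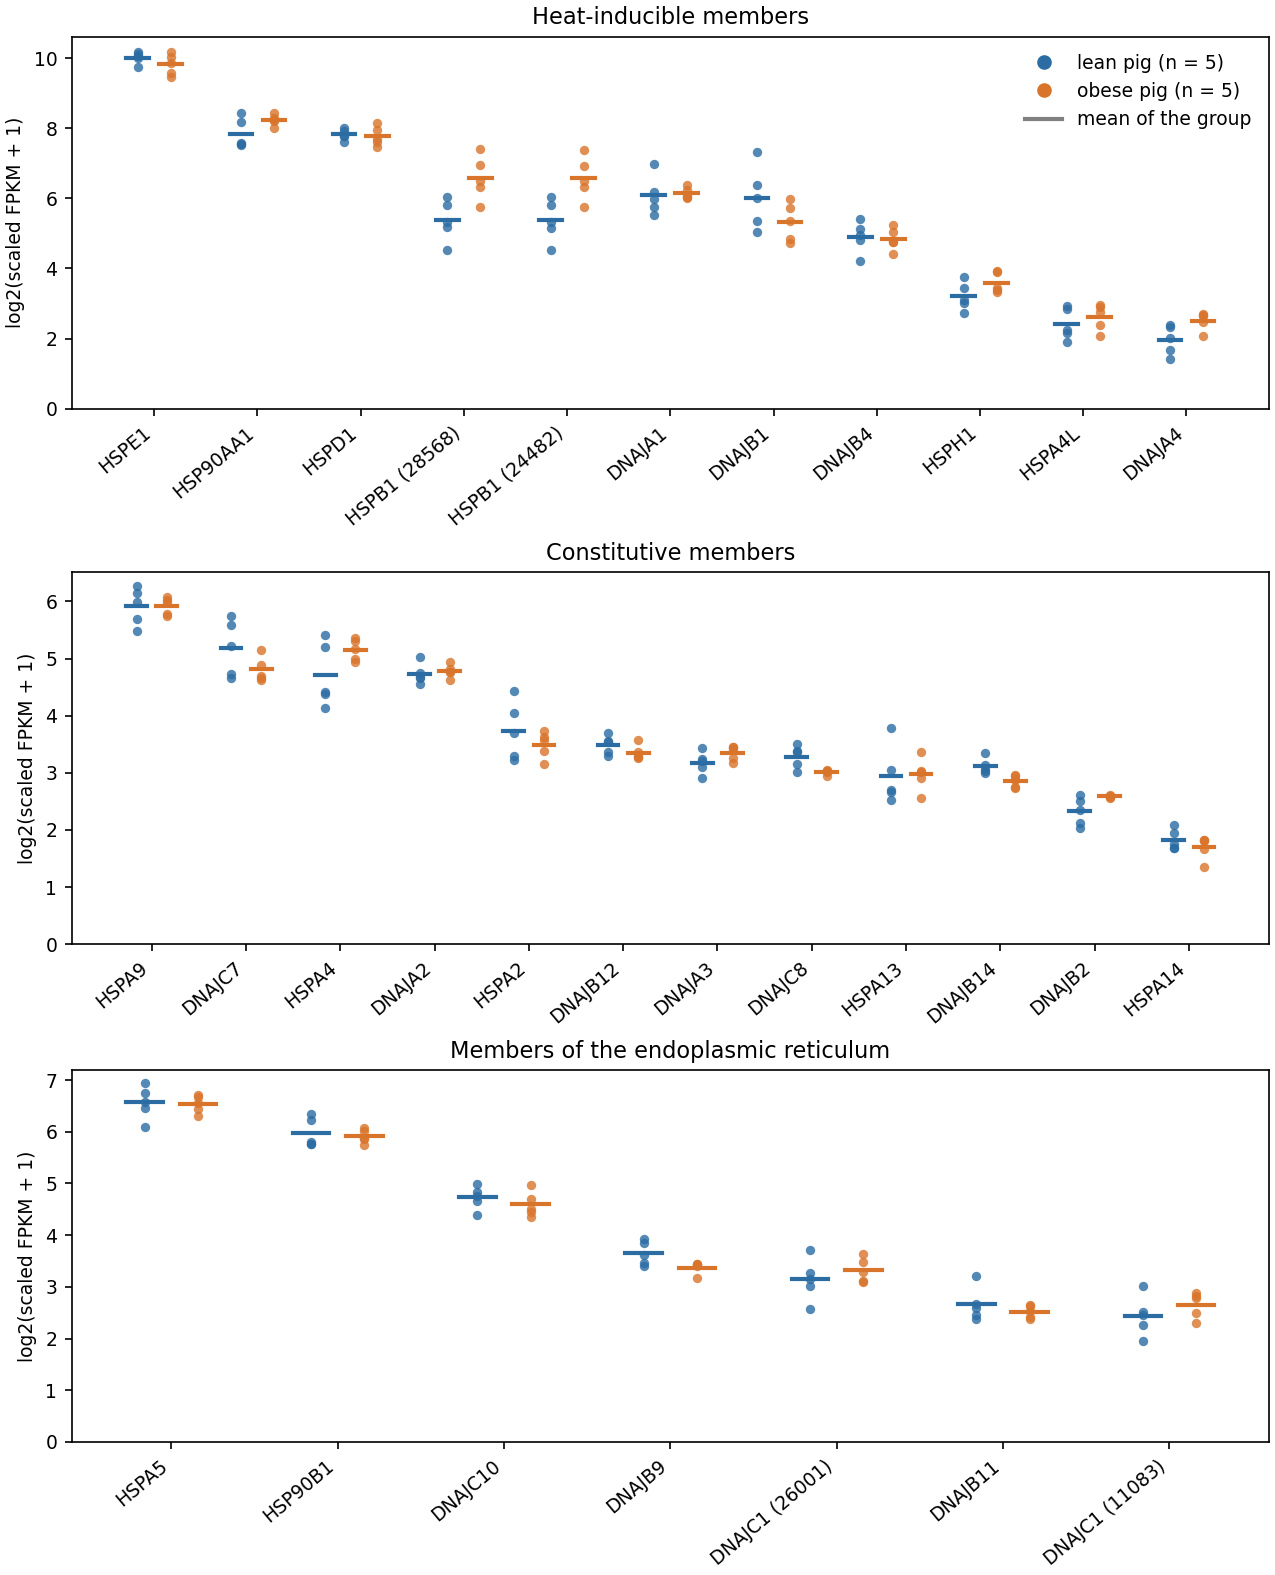
Log2(FPKM + 1) of the tested members in 3 lists, heat-inducible, constitutive and endoplasmic reticulum, with 1 point for each of 5 lean (blue) and 5 obese (orange) pigs and a line at the group mean. Numbers in brackets are the last digits of the Ensembl identifier where a name has 2 loci, and the lean points of HSPA4, DNAJB1 and DNAJA1 spread wider than the obese ones.

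DNAJA proteins are the closest J-domain partners of cytosolic HSP70, and all 4 had positive log2 fold changes under each of the 3 scalings. DNAJA4, a heat-inducible member that is also known as a target of sterol regulatory factors, had 4.22, 3.05, 2.21, 4.03 and 1.69 FPKM in lean pigs and 3.21, 5.30, 5.41, 4.51 and 5.44 FPKM in obese pigs. Obese pig-473, pig-524, pig-529 and pig-572 lay above all lean pigs, and obese pig-433 lay among them. The log2 fold change was 0.54 (SE 0.20), with an adjusted p of 0.188 by limma and an exact permutation p of 0.0317 that was above 0.05 in 7 of the 10 fits without 1 pig and reached 0.143 with FPKM as deposited. Without 1 pig the log2 fold change ran from 0.41 to 0.65 and the unadjusted p by limma from 0.00785 to 0.0495. With FPKM as deposited the log2 fold change was 0.52. DNAJA1, an inducible partner of HSP70, ran from 44.7 to 125 FPKM in lean and from 64.0 to 82.5 FPKM in obese pigs, with lean pig-525 far above the rest. A log2 fold change of 0.063 (SE 0.24) for DNAJA1 became -0.080 without pig-407 and -0.019 without pig-413. DNAJA2, a constitutive partner, averaged 25.7 FPKM in lean and 26.6 FPKM in obese pigs. DNAJA3, which works inside mitochondria, averaged 8.12 ± 1.23 FPKM in the lean group and 9.23 ± 0.861 FPKM in the obese group (SD, n = 5 each), with a log2 fold change of 0.17 (SE 0.11).

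Of 7 DNAJB members tested, 6 had negative log2 fold changes under each of the 3 scalings. DNAJB14, an endoplasmic reticulum membrane protein whose J domain faces the cytosol, had 7.02, 7.35, 9.17, 7.15 and 7.74 FPKM in lean pigs and 5.72, 6.65, 6.81, 6.29 and 5.62 FPKM in obese pigs. All obese pigs lay below all lean pigs, by a gap between obese pig-524 and lean pig-402. The log2 fold change was -0.26 (SE 0.091), the adjusted p 0.173 by limma, and the exact permutation p of 0.00794 is the smallest this design allows. With FPKM as deposited the groups overlapped and the exact permutation p was 0.0952, while the log2 fold change was -0.28. Under upper quartile scaling DNAJC8 took the place of DNAJB14 as the member without overlap. DNAJB12, its close relative, averaged 10.3 ± 1.21 FPKM in the lean group and 9.23 ± 0.954 FPKM in the obese group (SD, n = 5 each).

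DNAJB1, the classic inducible HSP40, had 39.6, 32.0, 64.0, 82.7 and 159 FPKM in lean pigs and 40.3, 62.7, 27.9, 52.1 and 25.3 FPKM in obese pigs. Lean pig-413, pig-525 and pig-577 lay above every obese pig, obese pig-524 and pig-572 lay below every lean pig, and pig-577 stood far above the others. This gave a log2 fold change of -0.69 (SE 0.42) with an exact permutation p of 0.183, and it was -0.37 without pig-577 and -0.94 without pig-407. A locus listed as HSPF1, an older symbol of DNAJB1 that the rule does not take, had a log2 fold change of -0.59 (SE 0.36) and may be the same gene or share reads with it. DNAJB4, another inducible form, ran from 17.6 to 41.9 FPKM in lean and from 20.5 to 36.9 FPKM in obese pigs, and its log2 fold change of -0.057 became 0.073 without pig-413 and 0.048 without pig-433. DNAJB2, a constitutive form that binds ubiquitin, had 4.11, 4.67, 5.12, 3.08 and 3.34 FPKM in lean pigs and 4.94, 5.04, 4.92, 5.04 and 5.08 FPKM in obese pigs. The obese pigs lay within a narrow band, 4 lean pigs lay below them and lean pig-413 lay above. Its log2 fold change was 0.26 (SE 0.11), with an adjusted p of 0.226 by limma and an exact permutation p of 0.0476. The latter was above 0.05 in 5 of 10 fits without 1 pig, and it was 0.135 under upper quartile scaling, 0.119 with FPKM as deposited and 0.0873 with the first library of pig-572, with log2 fold changes of 0.26, 0.24 and 0.24. DNAJB6 had no entry.

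DNAJC proteins share only the J domain and serve special tasks, and 22 of 28 genes were tested, 13 with positive and 9 with negative log2 fold changes. DNAJC8, which is found with splicing factors, had 10.3, 7.11, 7.93, 9.38 and 9.32 FPKM in lean pigs and 6.66, 7.19, 7.06, 7.14 and 7.32 FPKM in obese pigs. Obese values were tightly grouped, and only lean pig-407 fell among them. The log2 fold change was -0.27 (SE 0.098), with an adjusted p of 0.184 by limma and an exact permutation p of 0.0317, which was above 0.05 in 4 of 10 fits without 1 pig and with FPKM as deposited. Without 1 pig the log2 fold change ran from -0.34 to -0.22 and the unadjusted p by limma from 0.00375 to 0.0461. DNAJC13, which acts on endosomes, had 4.18, 3.75, 3.03, 3.47 and 3.03 FPKM in lean pigs and 4.22, 3.76, 4.81, 4.01 and 4.38 FPKM in obese pigs. Obese pig-433, pig-524 and pig-572 lay above all lean pigs and only lean pig-402 lay within the obese range. For DNAJC13 the log2 fold change was 0.23 (SE 0.093), with an adjusted p of 0.214 by limma and an exact permutation p of 0.0317 that was above 0.05 in 6 of 10 fits without 1 pig and under both other scalings (0.0635 and 0.190). Its log2 fold change ran from 0.19 to 0.28 without 1 pig. DNAJC7, which binds both HSP70 and HSP90, averaged 37.0 ± 12.5 FPKM in the lean group and 27.3 ± 4.55 FPKM in the obese group (SD, n = 5 each), and lean pig-413, pig-525 and pig-577 lay above all obese pigs. DNAJC5 had no entry.

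The other DNAJC members outside the lists had log2 fold changes between -0.23 and 0.38 and unadjusted p values of 0.0536 or more by limma. They were DNAJC2 and DNAJC9 at their more abundant loci, DNAJC6, DNAJC12, DNAJC14, DNAJC16, DNAJC17, DNAJC18, DNAJC21, DNAJC24 and DNAJC25. DNAJC6, the auxilin that uncoats clathrin vesicles, and DNAJC17, a splicing-related protein, mark the ends of that range. DNAJC9, a histone chaperone, had the widest bounds in the authors' FPKM estimates of all members tested, 24.9% to 36.8% of its value.

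Members of the endoplasmic reticulum had small differences of both signs. Of 7 genes tested 0 were higher and 1, DNAJB9, was lower at an unadjusted p under 0.05 by limma (14.3%, beside 9.508% of all genes tested), and the median log2 fold change was -0.063. DNAJB9, which helps clear misfolded proteins from the reticulum, had 9.58, 9.97, 11.3, 14.1 and 13.4 FPKM in lean pigs and 7.99, 9.66, 9.83, 9.89 and 9.52 FPKM in obese pigs. Lean pig-407, pig-413, pig-525 and pig-577 lay above all obese pigs, and obese pig-433 lay lowest. The log2 fold change was -0.28 (SE 0.12), with an adjusted p of 0.227 by limma and an exact permutation p of 0.0397, which was above 0.05 in 5 of 10 fits without 1 pig and 0.127 with FPKM as deposited. The log2 fold change ran from -0.34 to -0.21 without 1 pig and was -0.30 with FPKM as deposited. HSPA5, the main HSP70 of the reticulum, had 67.6 to 122 FPKM in lean and 78.5 to 104 FPKM in obese pigs. Its log2 fold change of -0.029 (SE 0.17) became 0.064 without pig-525, 0.017 without pig-407 and 0.027 without pig-572. HSP90B1, the HSP90 of the reticulum, averaged 63.0 ± 12.9 FPKM in the lean group and 59.5 ± 5.34 FPKM in the obese group (SD, n = 5 each).

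Further cochaperones of the reticulum were DNAJB11, DNAJC10 and DNAJC1. DNAJB11, a soluble partner of HSPA5, peaked at 8.21 FPKM in lean pig-525 while the other pigs lay between 4.18 and 5.39 FPKM. DNAJC10, a disulfide reductase, averaged 25.8 FPKM in lean and 23.5 FPKM in obese pigs. DNAJC1, a membrane protein near ribosomes, had log2 fold changes of 0.18 (SE 0.20) at ENSSSCG00000026001 and 0.22 (SE 0.19) at ENSSSCG00000011083, which lies on an unplaced scaffold, and these were 0.033 and 0.097 without pig-402. DNAJC3, an inhibitor of the kinase PERK, is named only in the reference table and averaged 9.79 ± 1.34 FPKM in the lean group and 11.9 ± 0.745 FPKM in the obese group (SD, n = 5 each). Lean pig-402 alone lay within the obese range, and the log2 fold change was 0.26 (SE 0.10), with an adjusted p of 0.200 by limma and an exact permutation p of 0.0159.

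Mitochondrial J proteins outside the lists above were DNAJC4, DNAJC11, DNAJC15, DNAJC19 and DNAJC28, with log2 fold changes from -0.16 to 0.20. DNAJC19, a subunit of the import motor, was the most abundant of them, with 49.9 to 63.9 FPKM in lean and 40.9 to 59.8 FPKM in obese pigs. None of these 5 reached an unadjusted p under 0.05 by limma.

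The symbol rule also takes 3 genes that are no chaperones of these families. HSPB11, a subunit of the intraflagellar transport complex that builds cilia, had 2.56, 3.77, 4.80, 4.74 and 4.72 FPKM in lean pigs and 1.38, 2.89, 3.29, 2.29 and 2.85 FPKM in obese pigs. Lean pig-407, pig-413, pig-525 and pig-577 lay above all obese pigs, and lean pig-402 lay among them. Between the groups the log2 fold change was -0.54 (SE 0.18), with an adjusted p of 0.173 by limma and an exact permutation p of 0.0317 that was above 0.05 in 5 of 10 fits without 1 pig. In these fits the log2 fold change ran from -0.66 to -0.40 and the unadjusted p by limma from 0.00276 to 0.0359. HSPBP1, an exchange factor of HSP70, averaged 1.71 FPKM in lean and 1.88 FPKM in obese pigs, and HSPBAP1, a protein found through its binding to HSPB1, averaged 1.65 FPKM and 1.70 FPKM.

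Heat-inducible and constitutive members were then set side by side. Of 11 heat-inducible genes tested, 3 were higher at an unadjusted p under 0.05 by limma, DNAJA4 and HSPB1 at both loci, and 0 were lower, which gives 27.3% and 0% beside 11.04% and 9.508% of all genes tested. The HSPB1 loci may be 1 measurement, and with FPKM as deposited they were the only 2. Of 12 constitutive genes tested, 1 was higher, DNAJB2, and 2 were lower, DNAJB14 and DNAJC8, which gives 8.33% and 16.7%, and with FPKM as deposited both counts were 0. The median log2 fold change was 0.19 over the heat-inducible and -0.066 over the constitutive genes, with 7 of 11 and 6 of 12 positive. The inducible list itself was split, since HSPB1, DNAJA4, HSPH1, HSP90AA1, HSPA4L and DNAJA1 had positive and DNAJB1, HSPE1, DNAJB4 and HSPD1 negative log2 fold changes.

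The mean of log2(FPKM + 1) over 10 heat-inducible names was 5.78, 5.21, 5.38, 5.95 and 5.52 in lean pigs and 5.73, 6.09, 5.64, 5.67 and 5.61 in obese pigs. Lean pigs spread widely around the obese ones, with pig-407, pig-413 and pig-577 below all obese pigs and pig-402 and pig-525 above 4 of them. Over 12 constitutive names the mean was 3.75, 3.57, 3.61, 3.88 and 3.71 in lean pigs and 3.58, 3.75, 3.71, 3.66 and 3.62 in obese pigs. The heat-inducible mean minus the constitutive mean was 2.03, 1.64, 1.77, 2.07 and 1.81 in lean pigs and between 1.92 and 2.34 in obese pigs. Obese pig-433 and pig-473 had the highest differences and lean pig-407, pig-413 and pig-577 the lowest, and the other pigs of both groups were mixed. Group means of this difference were 1.86 ± 0.18 in the lean group and 2.08 ± 0.17 in the obese group (SD, n = 5 each), so that the gap of 0.22 is little more than 1 SD. Much of it came from HSPB1, as the gap was 0.10 without this name, 0.31 without DNAJB1 and between 0.18 and 0.26 without any other. As the members were chosen, it carries no p.

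**Figure D4:**
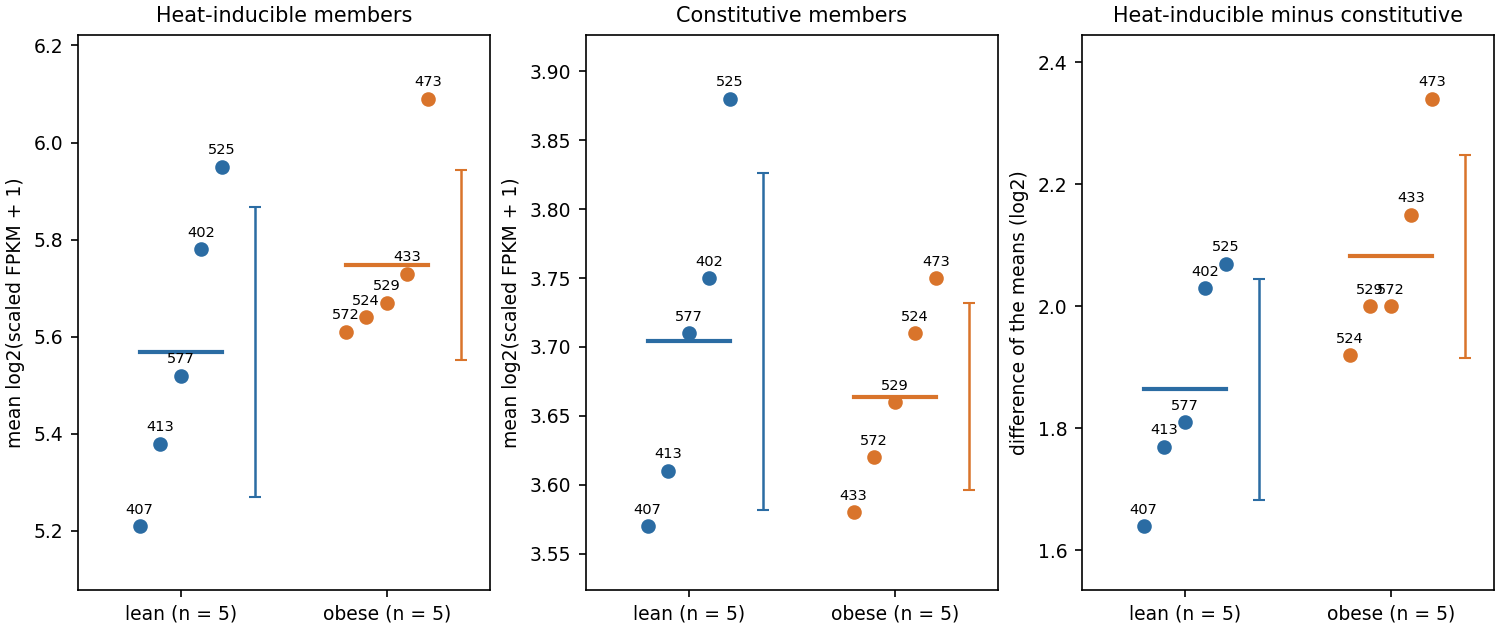
Mean log2(FPKM + 1) per pig over 10 heat-inducible names and over 12 constitutive names, and the first minus the second, for 5 lean (blue) and 5 obese (orange) pigs labelled by number, with the group mean as a line and 1 SD as a bar. In the third panel the groups overlap, and obese pig-473 and pig-433 lie highest at 2.34 and 2.15.

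Single pigs stood out across many members. Among lean pigs, pig-525 had the highest value of its group in 21 of 51 members (41.2%, beside 23.9% of all genes tested), and pig-407 had the lowest in 19 (37.3%, beside 22.2%) and the highest in 1 (1.96%, beside 12.6%). Among obese pigs, pig-473 had the highest value in 22 members (43.1%, beside 22.7%) and pig-433 the lowest in 20 (39.2%, beside 32.3%). The coefficient of variation was larger among lean than obese pigs in 38 members (74.5%), and in 64.1% of all genes tested. Its median was 22.0% in lean and 16.6% in obese pigs over the members, and 20.8% and 16.7% over all genes tested. The 2 libraries of pig-572 had a median absolute log2 difference of 0.051 over the members, with the largest, 0.54, in DNAJC15.

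**Figure D5:**
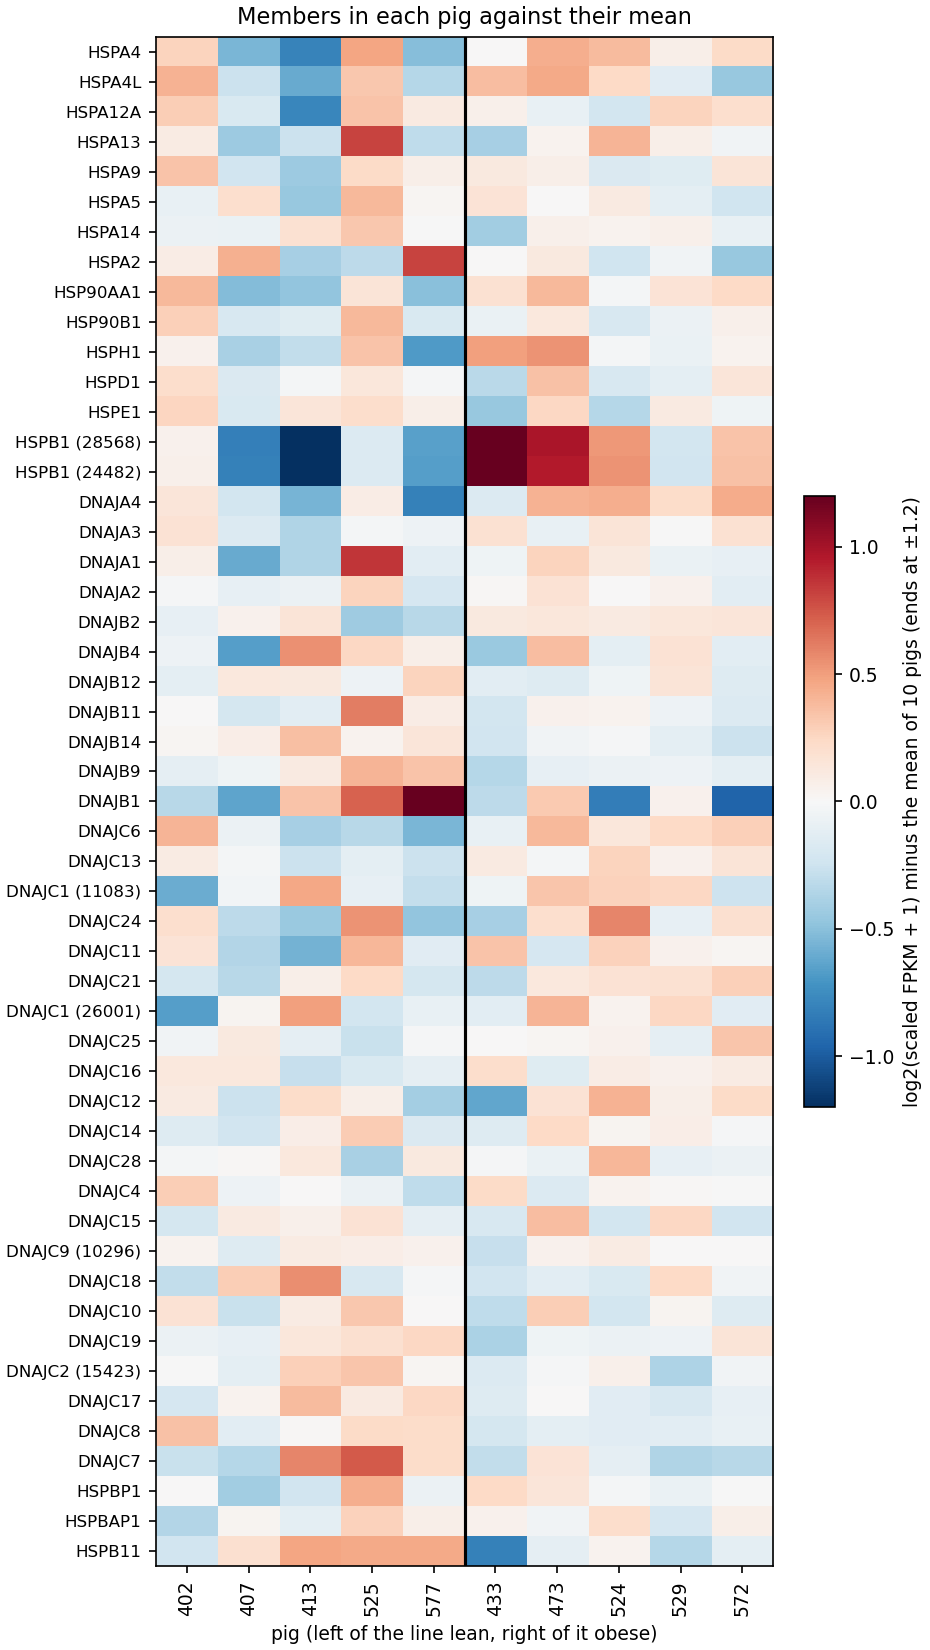
Log2(FPKM + 1) of each of the 51 members tested in each of 10 pigs, minus the member's mean over these pigs, from blue (lower) to red (higher) with the colour scale ending at 1.2 in both directions. Lean pig-525 and obese pig-473 show red in many members, lean pig-407 shows blue, and the HSPB1 loci run from blue in lean to red in most obese pigs.

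Regulators and partners of the chaperones were taken from lists drawn up with earlier results of these data known. HSF1, the factor that drives the heat shock response, had 2.39, 2.13, 2.08, 2.16 and 2.33 FPKM in lean pigs and 4.12, 2.48, 2.80, 2.46 and 2.50 FPKM in obese pigs. All obese pigs lay above all lean pigs, with pig-433 far above the rest. The log2 fold change was 0.25 (SE 0.11), with an exact permutation p of 0.00794. By limma the unadjusted p was 0.0495 and the adjusted p was 0.243. For HSF1 the log2 fold change would be clearly smaller without pig-433. Its p without this pig is not given here. HSF2, a related factor, had a log2 fold change of -0.19 (SE 0.096) and HSF4, best known from the lens, of -0.46 (SE 0.24). Of 5 regulators tested, 1 was higher and 0 lower at an unadjusted p under 0.05 by limma, beside 11.04% and 9.508% of all genes tested, and 0 under upper quartile scaling or with FPKM as deposited.

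A list of HSP70 and HSP90 cochaperones and related folding factors, with CRYAB and SERPINH1 among the latter and AHSA1 at 2 loci, gave 3 higher and 1 lower of 27 genes tested at an unadjusted p under 0.05 by limma (11.1% and 3.70%, beside 11.04% and 9.508% of all genes tested), with a median log2 fold change of 0.24. With FPKM as deposited 1 was higher and 1 lower. BAG5, an exchange factor, had a log2 fold change of 0.36 (SE 0.12) and SUGT1, an HSP90 partner, of 0.33 (SE 0.13). BAG3 was the third of these on the higher side. ST13, which links HSP70 and HSP90, had 161, 188, 312, 196 and 258 FPKM in lean pigs and 151, 159.9, 139.6, 186 and 139 FPKM in obese pigs. Only obese pig-529 reached the lean range, and the log2 fold change was -0.49 (SE 0.19), with an adjusted p of 0.204 by limma. In the cytosolic chaperonin TRiC 0 of 7 subunits were higher or lower by the same rule, beside the same shares of all genes, and the log2 fold changes of CCT5, CCT7 and CCT4 were 0.13, -0.088 and -0.11.

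Genes of endoplasmic reticulum stress gave 1 higher and 2 lower of 16 tested at an unadjusted p under 0.05 by limma (6.25% and 12.5%, beside 11.04% and 9.508% of all genes tested). Under upper quartile scaling 5 were lower, beside 10.1% of all genes. The counts were 1 higher and 1 lower with FPKM as deposited, beside 5.98% and 7.64% of all genes. PDIA4, a disulfide isomerase, averaged 15.9 ± 3.41 FPKM in the lean group and 9.25 ± 1.40 FPKM in the obese group (SD, n = 5 each). All obese pigs lay below all lean pigs, and the log2 fold change was -0.71 (SE 0.15), with an adjusted p of 0.0862 by limma. TRIB3, a pseudokinase of the stress response, had a log2 fold change of 0.82 (SE 0.34), and HERPUD1, which serves degradation of reticulum proteins, of -0.33 (SE 0.14). Genes of mitochondrial protein quality gave 5 higher and 1 lower of 12 tested at an unadjusted p under 0.05 by limma (41.7% and 8.33%, beside 11.04% and 9.508% of all genes tested), with 2 loci each for LONP1 and HTRA2 among the 5. With FPKM as deposited the counts were 2 and 0. The protease LONP1 had log2 fold changes of 0.44 (SE 0.15) and 0.47 (SE 0.14) at its loci, the protease HTRA2 of 0.26 (SE 0.10) and 0.22 (SE 0.093), and CLPP, the peptidase of the matrix, of 0.24 (SE 0.10). The 1 lower gene, CLPX, had a log2 fold change of -0.28 (SE 0.12).

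Immediate early genes, which cells switch on within minutes of many stimuli, had negative log2 fold changes in 16 of 16 genes tested under each of the 3 scalings, with a median of -1.02, and 8 of them were lower at an unadjusted p under 0.05 by limma, beside 9.508% of all genes tested. FOS, the most abundant, had a log2 fold change of -1.31 (SE 0.49), and NFKBIA of -1.46 (SE 0.56). Their list summed to 1188, 796, 2703, 2253 and 2605 FPKM in lean pigs and 1316, 1557, 451, 905 and 364 FPKM in obese pigs. The lean pigs with the highest sums, pig-413, pig-525 and pig-577, were also those with the highest DNAJB1, and the obese pigs with the lowest, pig-524 and pig-572, were those with the lowest DNAJB1. HSPB1 did not follow this order, being lowest in pig-413. DNAJB4 and DNAJC7 also had their highest lean values in pig-413, pig-525 and pig-577, but their lowest obese pigs were pig-433 and pig-529. No count over all members is given here, and the part of the immediate early genes in the chaperone values was not tested.

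DNA methylation was measured in adipocytes by capture of methylated DNA (mDNAcap) and by RRBS, each with 13 obese and 10 lean pigs by label, 5 and 2 of them female. The deposited mDNAcap means come from 11 libraries a group, with pig-411, labelled obese, counted as lean and obese pig-584 left out. Whether the RRBS means also count pig-411 as lean could not be read from the deposited values. The authors report more lean and fewer obese pigs than the labels give, so the label of pig-411 may be what departs from the study. Of the deposited mDNAcap regions of differential methylation, 7 lay within 5000 bases of 6 of the 65 members (9.23%), beside 11.26% of all 25285 genes. Of the 7 regions, 1 had more captured signal in obese pigs and 6 had less, where 29.3% of all deposited regions had more. DNAJC16 held both kinds, with mean normalised read counts of 39.8 in obese and 27.8 in lean pigs at chr6:69222001-69223600, and of 13.6 and 21.4 at chr6:69239201-69240500. Inside DNAJA3, at chr3:38954601-38956000, the count was 13.4 in obese pigs and the ratio of obese to lean was 0.668. DNAJC15, DNAJC18 and HSPBAP1 each held 1 region and DNAJC1 had 1 at 94 bases from its locus, with ratios of obese to lean from 0.565 to 0.672.

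Regions from RRBS with at least 5 pigs a group lay within 5000 bases of 2 members, HSPD1 and HSPE1 (3.08%, beside 1.705% of all genes), and this is the 1 region between their loci described above. With at least 3 pigs a group 3 members had a region, 4.62% beside 5.83% of all genes. Among these a region at the start of the HSPB11 locus, chr6:146038954-146039078, had a mean methylation of 15.8% in obese and 0.375% in lean pigs over 10 CpGs. HSF1 had an mDNAcap region inside its locus, chr4:629901-631700, with counts of 42.8 in obese and 30.6 in lean pigs, and an RRBS region with at least 3 pigs 2228 bases away, with 49.7% and 33.5%. Neither the mDNAcap nor the RRBS table with at least 5 pigs held a region within 5000 bases of HSPB1, DNAJA4, DNAJB14 or HSP90AA1.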

How the data were processed

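The authors cleaned the RNA reads, mapped them with STAR 2.3.1 to Sscrofa10.2 and estimated FPKM per gene and library with Cufflinks 2.2.0. The deposited mDNAcap signal is the mean normalised read count of a region over 11 libraries a group, made by the authors with diffReps 1.55.4 in windows of 1000 bases, and its lean mean includes pig-411, labelled obese. The deposited RRBS values are mean methylation fractions per region, made by the authors with Bismark 0.10, Bowtie2 2.1.0 and metilene, and are printed as percent. The cuffdiff, diffReps, metilene and hotspot columns that hold the authors' own tests were not used.

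Each of 11 RNA libraries lists 25337 entries, which were summed by Ensembl identifier to 25285 genes. The files give no read depth per library, so precision is known only from the Cufflinks bounds, whose median distance from the value over the members tested was 5.64% to 7.24% of it per library. FPKM were divided by median-of-ratios size factors, pig-572 entered as the mean of its 2 libraries, and 1 was added before log2. Genes with a mean of at least 1 FPKM were fitted with limma 3.58.1 (R 4.3.3, empirical Bayes with trend) and adjusted by Benjamini-Hochberg over all 10170. For single members an exact permutation test, 2-sided, used all 252 splits of 5 against 5 pigs. Tables and figures used Python 3.11.15, numpy 2.4.6, pandas 2.3.3 and matplotlib 3.10.9, and the tests were tested on simulated data.

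Members and lists were chosen with earlier results of these data known. Named were all listed heat-inducible, constitutive and endoplasmic reticulum members, the 5 most abundant members, each other member with an unadjusted p under 0.05 or without overlap, and from other lists HSF1, HSF2, the most abundant marker and the 2 or 3 genes with the lowest p. HSPA8, HSP90AB1, HSPA1L, DNAJC3, HSPF1, HSP70.2, CRYAB, BAG3, CLPX and the further members with ranges stand outside it. Symbols were taken from the tables, and from the reference name table where they have none (11791 of 25285 identifiers matched, 49 of 65 members). Loci are 1-based on Sscrofa10.2, RRBS coordinates are as deposited with their base not stated, and no genome was at hand, so no sequence is shown. Alternatives changed the pseudocount, filter, scaling, pig-572 libraries, trend, pigs and region distance.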

Additional observations from a re-analysis of the deposited data

Results flagged for a closer look

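In 68 groups of 5 pigs, over 32 named members and the list means, the highest or lowest pig was compared with the rest, and 2 groups stood out, where chance flags about 1 in 20 groups. For DNAJB9, obese pig-433 had 7.99 FPKM while the other obese pigs had 9.52 to 9.89 FPKM, a gap of 0.817 of the group's range in log2(FPKM + 1). For the mean log2(FPKM + 1) of the heat-inducible members, obese pig-473 had 6.09 and the other obese pigs 5.61 to 5.73, a gap of 0.756 of the range. The critical value for 5 pigs is 0.71.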

How the results depend on the processing

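No member passed the adjusted threshold in limma under any of 10 other settings or without any 1 pig, where main counts at an unadjusted p under 0.05 were 5 higher and 4 lower. With FPKM as deposited these counts were 2 and 1, the count of members without overlap on the lower side was 0, and HSPA9 had a log2 fold change of -0.020. Under upper quartile scaling 3 members were higher (5.88%, beside 10.4% of all genes tested). With an overlap of at least 1 base required, 0 members had an RRBS region from at least 5 pigs a group, beside 1.07% of all genes. Without 1 pig, 3 to 8 members were higher and 3 to 7 lower, and 0 to 2 on the higher and 1 to 4 on the lower side had no overlap, beside 2.69% to 5.74% and 1.80% to 4.36% of all genes tested. The heat-inducible minus constitutive difference of 0.22 ran from 0.15 to 0.27 without 1 pig and from 0.20 to 0.24 under the other settings. Log2 fold changes that changed sign without 1 pig ran from -0.080 to 0.29 for DNAJA1, -0.23 to 0.073 for DNAJB4, -0.12 to 0.026 for HSP90B1, -0.069 to 0.24 for HSPA13, -0.15 to 0.064 for HSPA5, -0.10 to 0.093 for HSPA9 and -0.14 to 0.027 for HSPD1. Of 32 named members, 13 others kept their sign but moved by more than 1.5 times without at least 1 pig. These ran from 0.0058 to 0.12 for DNAJA2, 0.10 to 0.24 for DNAJA3, -0.94 to -0.37 for DNAJB1, -0.21 to -0.0074 for DNAJB11, -0.19 to -0.087 for DNAJB12, 0.033 to 0.32 and 0.097 to 0.36 for the DNAJC1 loci, -0.23 to -0.072 for DNAJC10, -0.51 to -0.24 for DNAJC7, -0.18 to -0.051 for HSPA14, -0.38 to -0.074 for HSPA2, 0.061 to 0.33 for HSPA4L and -0.28 to -0.11 for HSPE1. For these changes the cause was not tested. Over the 32 members, 640 values under alternatives kept direction and side of the threshold apart from 41 that lost and 2 that gained an exact p under 0.05, and 20 of opposite sign. The count of all genes at an adjusted p under 0.05 was 1 and ran from 1 to 146 without 1 pig, highest without pig-402, and was 155 with the libraries of pig-572 taken as separate, which are not independent, 16 with the second of them, 15 with a pseudocount of 0.5, 5 with no filter and 0 with FPKM as deposited. Added after seeing the data, counting loci of 1 name once gave 4 higher and 4 lower, and adding HSPA8 and HSP90AB1 to the constitutive list gave a difference of 0.17. Leaving each name out of its list in turn gave 0.10 without HSPB1, 0.31 without DNAJB1 and 0.18 to 0.26 without any other name. No paired analysis was possible because the lean and obese pigs are different animals and the labels name no pairs. With the filter at 0.1 FPKM or absent, 58 and 61 members were tested. Of these 6 and 7 were higher (10.3% and 11.5%, beside 9.59% and 7.76% of all genes) and 5 and 6 lower (8.62% and 9.84%, beside 8.88% and 7.47%). Those added under 1 FPKM were HSPB6 (0.46, unadjusted p 0.00853 and 0.0106), DNAJC2 at ENSSSCG00000028700 and, without a filter, HSPB3 and DNAJC27. The files give no depth per library, which limits what can be said of these low values.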
